A study of Mus musculus with 4 samples.

Results

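RAW 264.7 macrophage-like cells after 6 h with Lactobacillus bulgaricus were set against the same cells after 1 h, to separate the later from the earlier response. The comparison used 2 of the 4 arrays of the series, chosen by their labelled times, and the 4 h array is shown beside them. The untreated array was not used. RAW 264.7 is a line from a BALB/c mouse tumour induced by Abelson leukaemia virus, and L. bulgaricus is a yogurt-fermenting bacterium that makes lactic acid. Both groups received 10 bacteria per cell (multiplicity of infection 10), and both were grown in medium with no antibiotic.

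Each time had 1 two-colour Agilent array of RNA pooled in equal amounts from 3 cultures, so there was no replicate array, no test and no p-value. The RNA of the cells carried Cy5 and a common reference, pooled from every group, carried Cy3. A value below is the log2 ratio of Cy5 over Cy3, and a difference is the 6 h ratio minus the 1 h ratio, so a positive difference means higher at 6 h. The rule for calling a gene higher or lower was that the difference be at least 1 in size (2-fold). The error given with a difference is the scanner software's own error of the spots, which leaves out the spread between cultures. Replicate spots of 199 probes gave an SD of 0.10 for a difference. The number of arrays limits the precision of every value.

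Macrophages sense bacteria through pattern recognition receptors, which signal through MAP kinases and NF-kB. Immediate early genes, many of them transcription factors, are transcribed within minutes without new protein synthesis, and their RNAs are short-lived. Cytokine, stress and metabolic genes follow over hours, while feedback inhibitors, RNA decay and phosphatases end the first wave. A comparison of a later with an early time covers both.

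Of 10502 genes measured on both arrays, 18 (0.171%) were higher and 73 (0.695%) lower at 6 h, and the 2 directions together made 0.867%. The differences of all measured genes had a median of -0.07 and an SD of 0.29, and 61.4% lay below 0. Another 42 genes lay between 0.9 and 1 in size. Most of the 91 genes rested on 1 probe, 16 of the 18 higher and 66 of the 73 lower ones. The difference was over 2 scanner errors in all 91, but the rule already implied this, since the largest error among them was 0.464 (Mir17hg). In the processed Cy5 signal alone, with no reference, the direction was the same in 18 of 18 higher and 71 of 73 lower genes. Of them 16 and 58 passed the 2-fold rule there, where 1.69% and 4.99% of all genes did. Cy5 is a part of the ratio that chose these genes, so this is no independent check. In bulk RNA, fewer cells expressing a gene and less RNA per cell cannot be told apart.

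The balance of the 2 directions depended on the scaling. The higher genes made 19.8% of the calls here, with 18 higher and 73 lower. They made 38.7% in the scanner software's processed signals (139 higher and 220 lower), 38.8% in the deposited ratios (139 and 219) and 48.2% in normalized Cy5 alone (119 and 128). Without loess, each array's ratio being centred on its median over all spots, the median of the measured genes moved to -0.98 and 2 were higher and 5013 lower (0.0% of calls higher). Taken relative to that median, 125 were higher and 108 lower (53.6% higher), and 17 of the 18 higher and 67 of the 73 lower genes kept their call. Without background correction and with plain subtraction the shares were 30.4% and 33.9%.

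**Figure D1:**
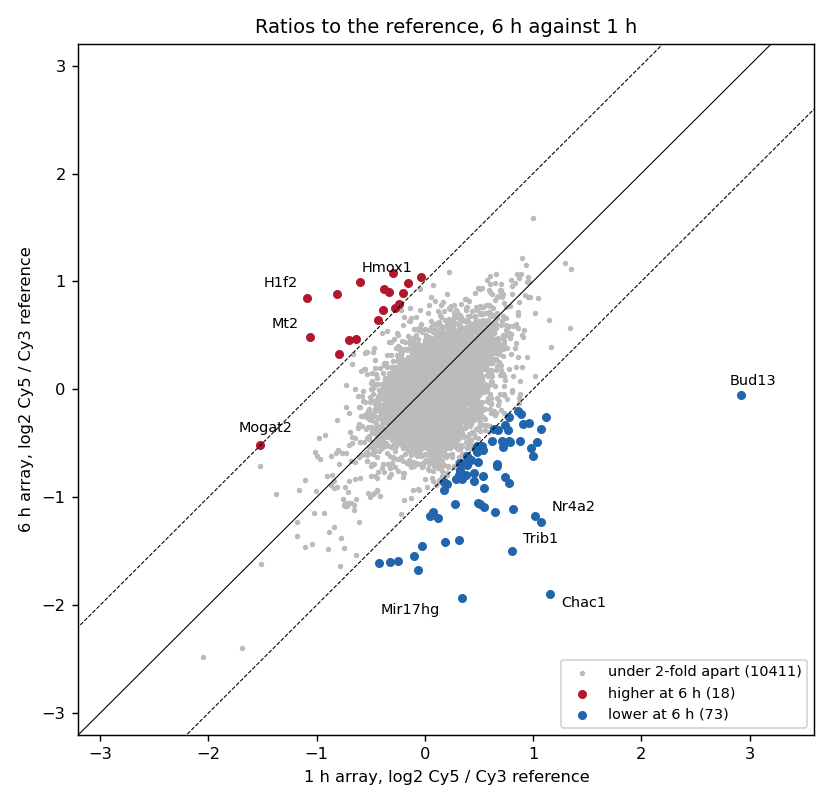
Log2 Cy5/Cy3 ratio of every measured gene on the 6 h array (vertical axis) and on the 1 h array (horizontal axis), 1 point per gene and 1 array per time. The solid line marks equal ratios and the dashed lines the 2-fold rule; 18 genes lie above the upper dashed line and 73 below the lower one, with Chac1 and Bud13 farthest below.

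Among the 51 gene lists, that of immediate early genes had the most lower members. Of 36 measured members, 9 were lower and 1 was higher, beside 0.695% and 0.171% of all genes, and 27 lay below 0. The median difference was -0.44, against -0.07 over all measured genes, and it lay between -1.33 and -0.20 over the alternatives in processing. The 9 were the orphan nuclear receptors Nr4a1 and Nr4a2, the zinc finger factors Egr2 and Klf2, the AP-1 subunits Fos, Fosb, Fosl1 and Fosl2, and Ier2, a nuclear early response protein.

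Nr4a2 fell the most of them. Its processed Cy5 signal was 67.0 at 6 h and 1079 at 1 h, while its reference signal was 338 at 6 h and 361 at 1 h. The ratio was -1.23 at 6 h, against 1.07 at 1 h, a difference of -2.30 ± 0.29 (scanner error, 2 probes at -2.93 and -1.68). For its relative Nr4a1 the Cy5 signal was 1137 at 6 h and 3885 at 1 h, and the difference was -1.61 ± 0.31. Both genes stood near their 6 h ratio already at 4 h, at -1.31 for Nr4a2 and -0.84 for Nr4a1.

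Klf2, a factor that restrains inflammatory genes in monocytes and endothelium, had a Cy5 signal of 107 at 6 h and 1657 at 1 h. Its reference was also dimmer at 6 h, at 367 against 699 at 1 h, and the difference of ratios was -2.19 ± 0.36. Egr2, which controls macrophage and lymphocyte programmes, had Cy5 signals of 63.0 at 6 h and 818 at 1 h and a difference of -1.92 ± 0.37. At 4 h Klf2 (-1.44) lay below its 6 h ratio of -1.18, and Egr2 (-0.84) lay near its 6 h ratio of -1.10.

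The 4 AP-1 subunits that fell differed in their course. Fosb had Cy5 signals of 46.6 at 6 h and 430 at 1 h, with a difference of -1.44 ± 0.40, and Fosl1 had 755 at 6 h and 2507 at 1 h, with -1.52 ± 0.31. Fosl2 stood at 390 at 6 h and 1817 at 1 h (-1.54 ± 0.32), and Fos at 164 at 6 h and 570 at 1 h (-1.22 ± 0.34). Fosl2 was near its 6 h level at 4 h, whereas Fos, at -0.13 at 4 h, lay nearer its 1 h ratio of 0.08. Without the filter on dim probes Fosl2 stood at -0.74, short of the rule. Other AP-1 members did not pass, with Junb at -0.42, Jun at 0.17, Jund at 0.19 and the related Atf3 at 0.36.

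Ier2 had Cy5 signals of 235 at 6 h and 932 at 1 h and a difference of -1.38 ± 0.32. Egr1, another classical member, was well above background in Cy5 at 1 h only and never in the reference, so it has no ratio. The 1 higher member was Gadd45b, a stress sensor that binds MAP kinase kinases, with Cy5 signals of 4717 at 6 h and 2390 at 1 h and a difference of 1.08 ± 0.30, which stood at -0.02 without loess, where all genes had a median of -0.98. The stress-induced early gene Ier3 stood at 0.92, just short of the rule.

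The promoters of these genes are shown because signal-driven factors of the CREB and AP-1 families bind such sequences. In the 250 bases upstream of the start, 6 of the 7 lower immediate early genes with a promoter in the RefSeq table held TGACG or its complement CGTCA, the core of a cAMP response element, in capitals below. So did 37.5% of the 64 lower genes with a promoter, 23.1% of the 13 higher ones and 31.0% of all 8472. This short motif was chosen after the sequences were seen, and the full element TGACGTCA was in 0 of the 7 and in 3.16% of all. The AP-1 site TGANTCA was also in 0 of the 7, and in 5.69% of all. Egr2 also holds a serum response element, the CArG box, which 1.35% of all promoters hold. Stretches are from RefSeq, build GRCm38.p6, read 5′ to 3′ on the gene's strand. They lie at chr15:101266603-101266647 (plus strand) for Nr4a1, chr2:57124112-57124213 (minus) for Nr4a2, chr7:19310091-19310115 (minus) for Fosb, chr12:85473751-85473838 (plus) for Fos, chr10:67537748-67537828 (plus) for Egr2 and chr8:72318812-72318835 (plus) for Klf2.
Nr4a1: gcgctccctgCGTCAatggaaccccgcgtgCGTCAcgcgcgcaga
Nr4a2: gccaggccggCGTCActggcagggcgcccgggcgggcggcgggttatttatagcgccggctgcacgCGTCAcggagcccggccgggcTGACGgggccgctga
Fosb: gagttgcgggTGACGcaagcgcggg
Fos: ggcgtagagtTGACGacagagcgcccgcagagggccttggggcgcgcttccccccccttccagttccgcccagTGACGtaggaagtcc
Egr2: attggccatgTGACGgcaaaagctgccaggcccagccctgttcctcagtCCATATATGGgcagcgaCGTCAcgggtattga
Klf2: ctggtttgtTGACGccgtcgccat
The Nr4a1 promoter also holds CGTCA at positions -69 and -40 from the start, outside its stretch. The Nr4a2 promoter holds a further TGACG at -111, which runs past the end of its stretch and is not in capitals. A match describes the letters and is no evidence of binding.

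**Figure D2:**
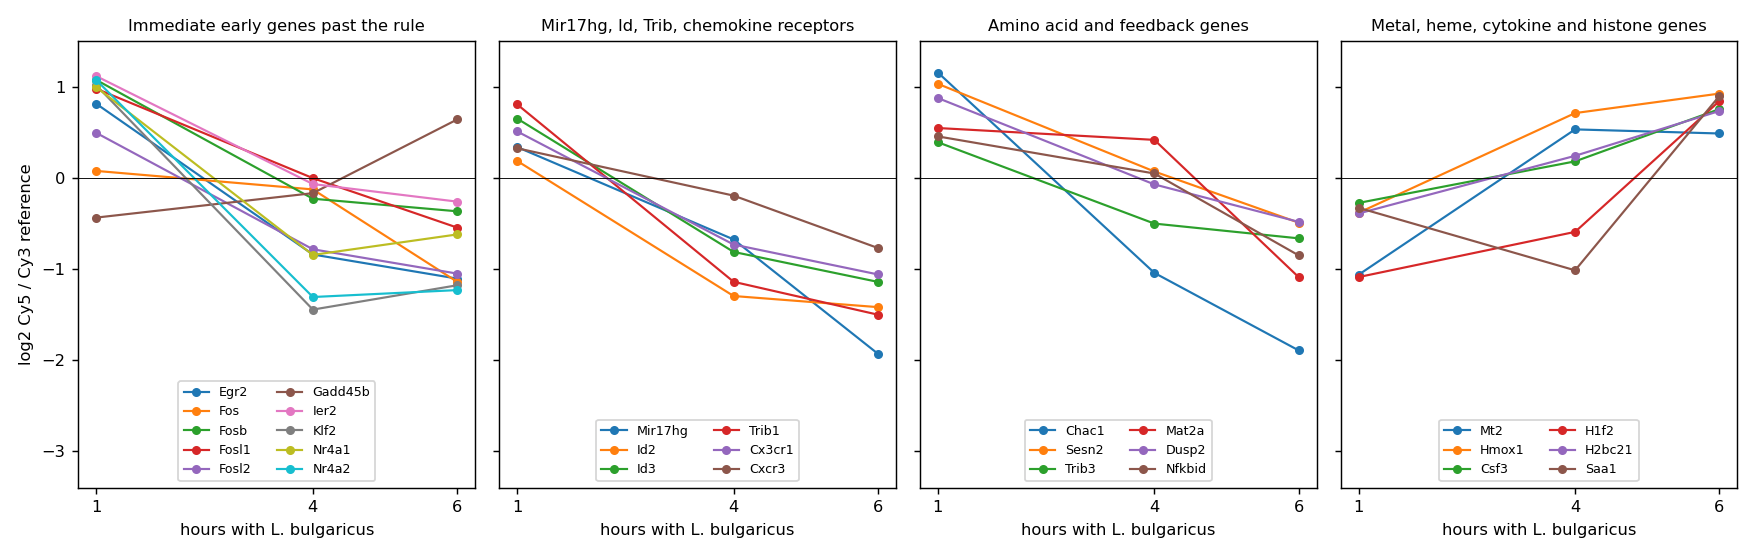
Log2 Cy5/Cy3 ratio (vertical axis) of named genes at 1, 4 and 6 h (horizontal axis), 1 array per time, in 4 panels by role; lines join the 3 arrays. All genes of the first 3 panels except Gadd45b end lower at 6 h than at 1 h, and the genes of the last panel end higher.

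Trib1, Id2 and Id3, which hold back transcription factors, were also lower. Trib1, a pseudokinase that directs C/EBP proteins to degradation, had Cy5 signals of 143 at 6 h and 1293 at 1 h and fell by 2.31 (± 0.26, 2 probes at -2.81 and -1.80). Id3, an inhibitor of basic helix-loop-helix factors, had 1580 at 6 h and 6668 at 1 h, a difference of -1.79 ± 0.31, and Id2 had 200 at 6 h and 1051 at 1 h, a difference of -1.60 ± 0.34. All 3 lay nearer their 6 h than their 1 h ratio at 4 h, at -1.14, -0.81 and -1.29. Id1 stood at -0.64, with a reference that was itself lower by 1.99. Of the 12 measured genes of the Id and TGF-beta feedback list 2 were lower and 0 higher, beside 0.695% and 0.171% of all genes. The list median was -0.36.

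Among feedback inhibitors of MAP kinases and NF-kB, 1 gene of each list was lower and 0 were higher, beside 0.695% and 0.171% of all genes. Dusp2, a nuclear MAP kinase phosphatase, had Cy5 signals of 4150 at 6 h and 9364 at 1 h and fell by 1.36 (± 0.30); it was the 1 lower gene of 11 measured members of its list, whose median was -0.20. Nfkbid, an atypical inhibitor of NF-kB, had 7411 at 6 h and 14729 at 1 h and fell by 1.31 (± 0.30), the 1 lower gene of 22 in a list with a median of -0.01. The classical inhibitor Nfkbia stood at 0.21 and Socs3, an inhibitor of cytokine signalling, at -0.34. Tnfaip3, a ubiquitin editor, stood at 0.49 with a reference that was higher by 3.19.

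Mir17hg, the host transcript of the miR-17-92 cluster, fell by 2.27 (± 0.46). Its processed Cy5 signal was 40.5 at 6 h and 693 at 1 h, with a reference of 559 at 6 h and 530 at 1 h, and the 4 h ratio of -0.67 lay between those of 6 h (-1.93) and 1 h (0.34). The cluster is a target of MYC and is known to promote proliferation. Myc itself stood at -0.09. Of 30 measured genes of the MYC list 1 was lower, Mir17hg, and 0 were higher, beside 0.695% and 0.171% of all genes. The array measured the host transcript and not the mature miRNAs, whose sequences are shown to group the cluster's products by seed (bases 2 to 8, in capitals). They are from RefSeq, GRCm38.p6, on the plus strand of chromosome 14, and the 6 listed lie between chr14:115043684-115043706 for miR-17-5p and chr14:115044476-115044496 for miR-92a-3p.
mmu-miR-17-5p: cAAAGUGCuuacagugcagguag
mmu-miR-20a-5p: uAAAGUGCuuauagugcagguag
mmu-miR-18a-5p: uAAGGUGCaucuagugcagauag
mmu-miR-19a-3p: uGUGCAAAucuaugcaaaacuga
mmu-miR-19b-3p: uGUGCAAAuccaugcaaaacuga
mmu-miR-92a-3p: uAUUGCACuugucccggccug
miR-17-5p and miR-20a-5p share 1 seed, and miR-19a-3p and miR-19b-3p share another.

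Chac1, an enzyme that degrades glutathione and a target of ATF4, a transcription factor of the amino acid response, had the lowest difference of all measured genes. Its processed Cy5 signal was 937 at 6 h and 7039 at 1 h, while the reference was 4386 at 6 h and 3157 at 1 h. It fell by 3.05 (± 0.37) and lay nearer its 6 h ratio at 4 h. Sesn2, a leucine sensor that restrains mTORC1, had 1938 at 6 h and 4722 at 1 h (-1.52 ± 0.31), and Trib3, a pseudokinase induced by ATF4, 825 at 6 h and 1932 at 1 h (-1.05 ± 0.30). These 3 were the lower genes of 30 measured members, and 0 were higher, beside 0.695% and 0.171% of all genes. The list as a whole had a median of -0.04, near that of all genes, and Ddit4, an mTORC1 inhibitor, stood at 0.76, Ddit3 at 0.49 and Slc38a2, an amino acid carrier, at -0.88.

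The promoters of Chac1 and Trib3 are printed because both are known ATF4 targets. Chac1, at chr2:119350992-119351066 on the plus strand, holds TGACG and the ATF4 element TGATGNAA on its other strand, a motif of 2.40% of all promoters. The Trib3 stretch, at chr2:152344283-152344307 on the minus strand, holds TGACG alone. The Trib3 promoter also holds CGTCA at position -10 from the start, outside this stretch. Both stretches are from RefSeq (GRCm38.p6), with the matches in capitals.
Chac1: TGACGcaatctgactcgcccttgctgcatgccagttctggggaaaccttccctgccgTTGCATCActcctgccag
Trib3: tggaggggatTGACGagatttttaa
The ATF4 element was in 6.25% of lower and 0.0% of higher promoters.

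Genes of the endoplasmic reticulum's unfolded protein response lay low together, with no member past the rule. Of 30 measured members 27 were below 0, where 61.4% of all genes were, and the median was -0.46. Herpud1, a factor of protein degradation at the reticulum, stood at -0.93, with Cy5 signals of 1427 at 6 h and 3236 at 1 h. Manf, a secreted chaperone-like factor, stood at -0.89, the ubiquitin ligase Syvn1 at -0.82, the transcription factor Xbp1 at -0.68 and the chaperone Hspa5 at -0.45. The median was below 0 in every alternative run, at -0.60 relative to the median without loess and at -0.41 in Cy5 alone.

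Interferon-stimulated genes showed a like shift. Of 44 measured members 39 lay below 0, and the median was -0.38. Of them 2 were lower and 0 higher, beside 0.695% and 0.171% of all genes. Trim25, a ubiquitin ligase of RNA sensing, had Cy5 signals of 9351 at 6 h and 19204 at 1 h (-1.12 ± 0.30), and Ifi204, a DNA sensor, had 2706 at 6 h and 5437 at 1 h (-1.002 ± 0.30). Rtp4, at -0.71 at 6 h and 0.29 at 1 h, just missed the rule, and Igtp, Oas2 and Irf9 stood at -0.93, -0.77 and -0.72. Ifi204 passed in 10 of 15 alternatives, among them Aquantile normalization, which leaves every ratio as it was. In Cy5 alone it stood at -0.95. Ifit2, Gbp2 and Stat2 stood at 0.29, 0.14 and 0.10. The interferon-induced chemokine Cxcl10, on another list, stood at 0.87.

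Sterol genes were also on the low side. Of 37 measured genes of cholesterol and fatty acid synthesis 36 lay below 0, with a median of -0.27. Cyp51, lanosterol demethylase, passed at -1.03 ± 0.31, but with the processed Cy5 signal changed by -0.71 and the reference by 0.69. Scd2 stood at -0.93, Fasn at -0.69 and Insig1 at -0.37. Pattern recognition receptors and adaptors had a median of -0.24 with 20 of 28 below 0, all 17 measured genes of MHC and antigen processing lay below 0 with a median of -0.18, and cell cycle genes had a median of -0.18 with 45 of 51 below 0. None of these 3 lists had a member past the rule, and in Cy5 alone the cell cycle median was -0.03.

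Of 4 measured chemokine receptors 2 were lower and 0 higher, beside 0.695% and 0.171% of all genes. The others, Ccrl2 and Cxcr5, stood at 0.07 and -0.23. Cx3cr1, the fractalkine receptor of monocytes and macrophages, was seen by 3 probes, between -1.70 and -1.44; its Cy5 signal was 1413 at 6 h and 4349 at 1 h, with a difference of -1.57 ± 0.18. Cxcr3, a receptor for interferon-induced chemokines, had 877 at 6 h and 1400 at 1 h and a difference of -1.09 ± 0.30, with the processed Cy5 signal changed by -0.68 and the reference by 0.40. Mat2a, the enzyme that makes S-adenosylmethionine, fell by 1.64 (± 0.22, 2 probes at -1.69 and -1.59), with 2504 at 6 h and 7847 at 1 h. At 4 h Mat2a stood at 0.42, near its 1 h ratio of 0.55. Sertad1, a regulator of cyclin-dependent kinase, fell by 1.55 (± 0.31).

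The highest differences were those of the histone genes H1f2 and H2aw. H1f2, a linker histone, had Cy5 signals of 6777 at 6 h and 1699 at 1 h, with a reference of 3526 at 6 h and 4134 at 1 h, and rose by 1.93 (± 0.32). H2aw, a histone H2A, had 1786 at 6 h and 469 at 1 h (1.69 ± 0.33). The H2B genes H2bc14 (1.15), H2bc21 (1.12), H2bc8 (1.09) and H2bc1 (1.03) rose too; H2aw, H2bc14 and H2bc8 are named for the size of their differences, and H2bc1 was named after its value was seen. The histone list holds H1f2 and H2bc21 but not the others named. Of its 17 measured genes 2 were higher and 0 lower, beside 0.171% and 0.695% of all genes, with a median of 0.03. H1f5 stood at -0.85, H1f1 at -0.48, H1f4 at 0.37 and H2ax at 0.65. The H2B genes are close copies, so the probes of single members may share signal. H2bc8 was dim, with Cy5 signals of 220 at 6 h and 25.1 at 1 h.

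Mt2 and Hmox1, genes of the metal and heme responses, rose as well. Mt2, a metallothionein that binds zinc and other metals, had Cy5 signals of 40050 at 6 h and 16656 at 1 h, with a reference of 28426 at 6 h and 33372 at 1 h. Its ratio was 0.49 at 6 h, against -1.06 at 1 h, a difference of 1.55 ± 0.31, and it had reached 0.53 at 4 h. Mt1 stood at 0.85, while the zinc importer Slc39a10 fell by 1.03 (± 0.30). The Mt2 promoter is printed because the metal-sensing factor MTF1 binds metal response elements, here TGCNCNC on either strand, which 56.4% of all promoters hold. It also holds an antioxidant response element (TGACNNNGC, in 14.1% of all) that overlaps an AP-1 site (TGANTCA, in 5.69% of all). The stretch lies at chr8:94172480-94172584 on the plus strand (RefSeq, GRCm38.p6). Metal response elements at positions -223 and -178 from the start lie outside it.
Mt2: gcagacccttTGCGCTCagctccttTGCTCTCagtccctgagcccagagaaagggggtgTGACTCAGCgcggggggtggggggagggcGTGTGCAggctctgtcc

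Hmox1, the heme oxygenase and an NRF2 target, had Cy5 signals of 21289 at 6 h and 8139 at 1 h, and rose by 1.31 (± 0.21, 2 probes at 1.29 and 1.32). It was the 1 higher of the 35 measured genes on the NRF2 and oxidative stress list, and 0 were lower. Over all genes the shares were 0.171% and 0.695%. On the list 29 lay above 0, where 38.6% of all genes did. The median was 0.22, and it was 0.09 relative to the median without loess and 0.14 in Cy5 alone. Sqstm1, an autophagy cargo receptor, stood at 0.80, the ferritin chain Ftl1 at 0.65, the thioredoxin reductase Txnrd1 at 0.56 and the glutathione reductase Gsr at 0.47. Nfe2l2, which encodes NRF2, stood at -0.34 and its inhibitor Keap1 at -0.21. The iron exporter Slc40a1 stood at 0.83. The glutathione peroxidase gene Gpx2, on no list and named after its value was seen, was lower at -1.185 ± 0.33. Its Cy5 signals were 1295 at 6 h and 3345 at 1 h.

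**Figure D3:**
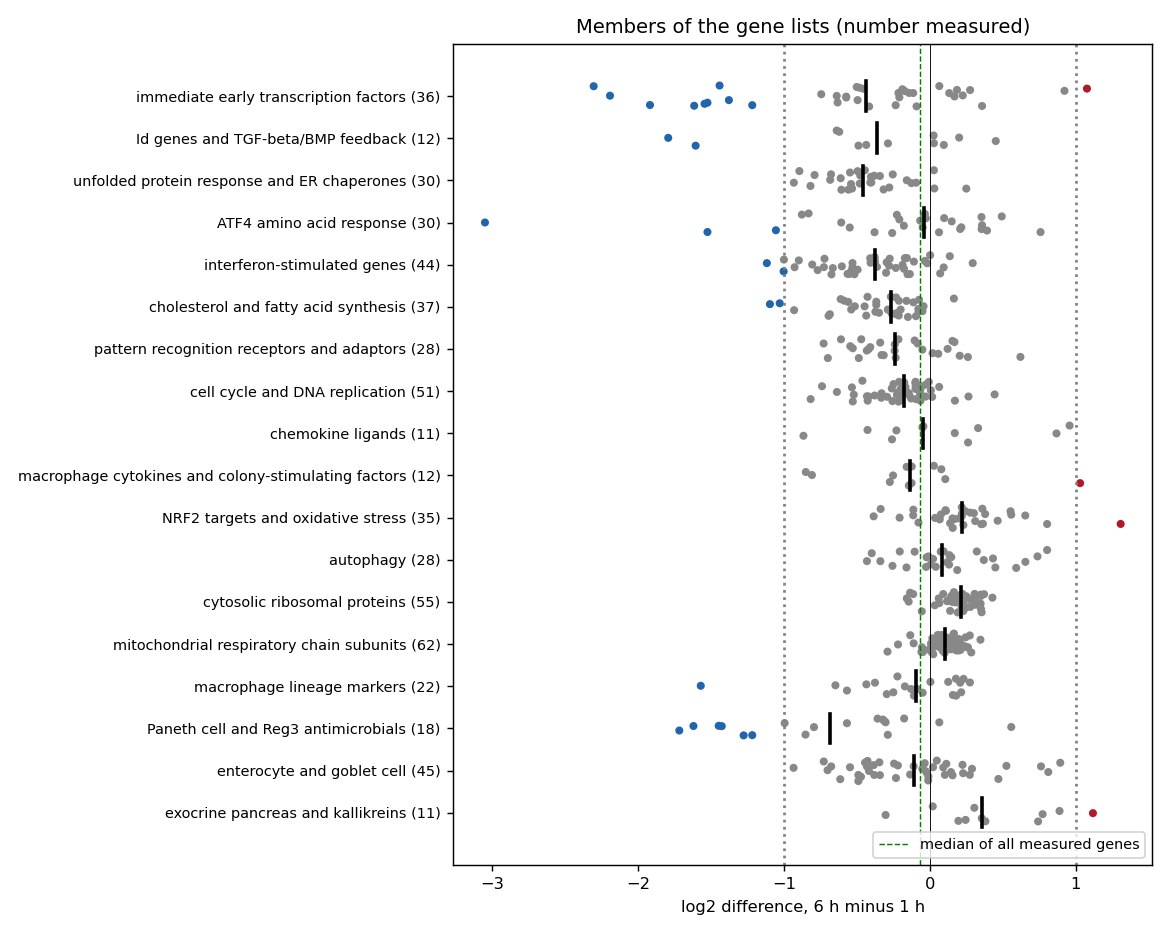
Log2 difference, 6 h minus 1 h (horizontal axis), of each measured member of 18 gene lists, 1 point per gene, with a black bar at the list median, red and blue for genes past the rule and dotted lines at 2-fold. The immediate early, unfolded protein response and interferon lists lie to the left of the median of all genes (dashed), and the NRF2 list to its right.

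Of the measured genes in the cytokine and chemokine ligand lists, Csf3 alone passed the rule, which 0.867% of all genes did. Csf3, the granulocyte colony-stimulating factor, had Cy5 signals of 498 at 6 h and 171 at 1 h and rose by 1.03 (± 0.32), the 1 gene of 12 measured in its list to pass. The neutrophil-attracting chemokine Cxcl2 stood at 0.96, with 1199 at 6 h and 516 at 1 h, and Ccl2, which attracts monocytes, at -0.87, with 12777 at 6 h and 20591 at 1 h. Tnf stood at -0.27 and was higher at 4 h than at both other times, with a ratio of 0.86 there. Osm, a cytokine of the interleukin-6 family, stood at -0.85, Ccl5 at 0.33 and Ptgs2, the inducible cyclooxygenase, at 0.41. The chemokine ligand list had 0 of 11 members past the rule and a median of -0.04, which was 0.24 in Cy5 alone. Il1b, Il6 and Arg1 were not well above background in either channel.

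No pair of the remaining higher genes shared a list. Adh1, an alcohol dehydrogenase, rose by 1.59 (± 0.34), with Cy5 signals of 767 at 6 h and 181 at 1 h. Ptpn14, a tyrosine phosphatase, rose by 1.37 (± 0.35), Saa1, an acute phase protein, by 1.23 (± 0.31) and the carboxylesterase Ces2a by 1.16 (± 0.32). Fabp4, a fatty acid carrier of adipocytes and macrophages, rose by 1.103 (± 0.32), Wfdc2, a secreted epithelial protein, by 1.07 (± 0.30) and the kallikrein Klk1b5 by 1.12 (± 0.32). Mogat2, an enzyme of intestinal triglyceride synthesis named after its value was seen, rose by 1.01 (± 0.40). Adh1, Saa1 and Klk1b5 were lower at 4 h than at both other times, with ratios of -1.39, -1.01 and -1.36.

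Housekeeping programmes stayed within narrow ranges. The 55 measured ribosomal protein genes lay between -0.16 and 0.43 with a median of 0.22, which became 0.04 relative to the median without loess and -0.09 in Cy5 alone. The 62 subunits of the respiratory chain had a median of 0.10 with 54 above 0, but -0.10 and -0.11 by the same measures. The direction of these 2 lists thus depended on the scaling.

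Of the transcripts known from intestinal cells, those of the Paneth cell and Reg3 list were among the lower genes. Genes on no list moved both ways, with the intestinal enzyme gene Mogat2 at 1.01, the carboxylesterase Ces2a at 1.16 and Gpx2 at -1.185. Of 18 measured Paneth cell and Reg3 genes 6 were lower and 0 higher, beside 0.695% and 0.171% of all genes, with a median of -0.68. The antimicrobial lectin Reg3b had Cy5 signals of 554 at 6 h and 1908 at 1 h, with a reference of 1675 at 6 h and 1631 at 1 h, and fell by 1.72 (± 0.33), and Reg3g fell by 1.62 (± 0.35). The alpha-defensins Defa29 and Defa38 stood at -1.45 and -1.43; alpha-defensins are near-identical copies, so single members are uncertain. Defa42, an alpha-defensin on no list and named after its value was seen, stood at -1.34. Defa21 (-1.28) and the angiogenin Ang4 (-1.22) were higher in the processed Cy5 signal, by 2.91 and 1.47, with a reference higher by 3.98 and 2.85. The summed Cy5 signal of the list was 16788 at 6 h and 24415 at 1 h. This sum includes Defa21, at 4902 and 653, and Ang4, at 836 and 302, whose reference had moved.

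Neither the enterocyte nor the gland list had a lower member. The 45 measured enterocyte and goblet cell genes had 0 past the rule, a median of -0.11 (0.05 in processed signals) and summed Cy5 signals of 40693 at 6 h and 44138 at 1 h. The 11 measured exocrine pancreas and kallikrein genes had 1 higher, beside 0.171% of all genes, and a median of 0.36. Their sums were 3838 at 6 h and 2313 at 1 h. The trypsins Prss1 and Prss2 were not well above background on either array. Of the markers of the labelled cells 22 of 31 on the array were measured. Among them were Csf1r (-0.11), Itgam (-0.09), Adgre1 (-0.05), Spi1 (0.21) and Ptprc (-0.25). Cx3cr1 was the 1 lower, beside 0.695% of all genes. The sums of these markers were 88844 at 6 h and 99069 at 1 h. The spots of Cd14, Fcer1g and Tyrobp were left out as outliers. Without the genes of the intestinal, stromal and gland lists and without any other alpha-defensin gene, which leaves out Defa42, 17 genes were higher and 66 lower. This alternative was chosen after seeing the data, and genes on no list, such as Mogat2 and Wfdc2, stayed in it. The part of the other tissues' transcripts in the remaining calls was not tested.

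**Figure D4:**
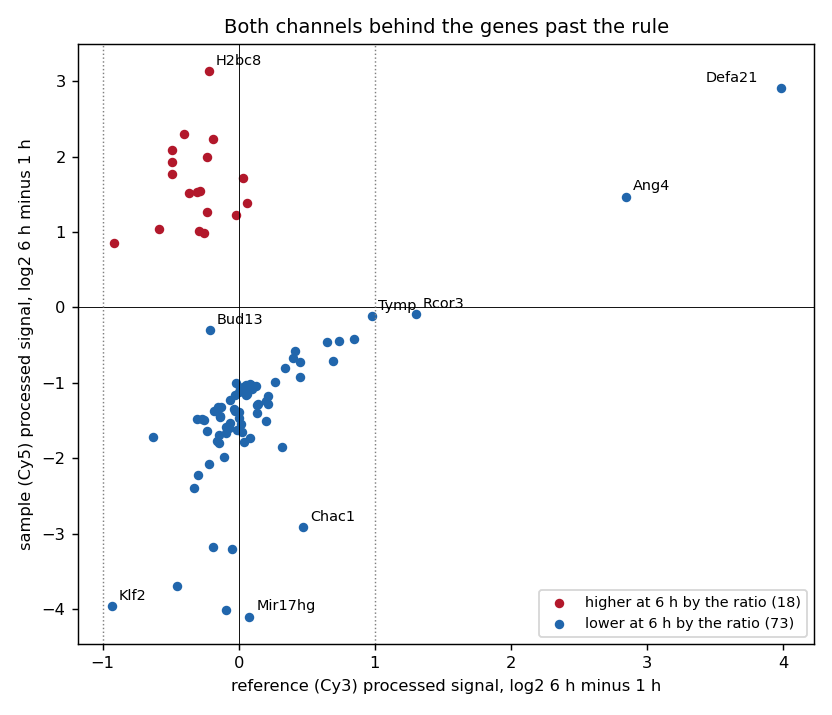
Log2 change, 6 h minus 1 h, of the processed sample signal (Cy5, vertical axis) and of the processed reference signal (Cy3, horizontal axis) for the 91 genes past the 2-fold rule, 1 point per gene. Most points lie near 0 on the reference axis; Defa21, Ang4 and Rcor3 lie beyond 1, and Bud13 is close to 0 on both axes.

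The reference was the same RNA on both arrays, so a Cy3 signal that moved reflects no change in the cells, and it cancels in the ratio as far as both channels of a spot share it. The processed Cy3 signal moved by at least 1 in 0 of 18 higher and 3 of 73 lower genes, against 3.28% of all. The 3 were Defa21, Ang4 and Rcor3, a corepressor subunit whose processed Cy5 signal moved by -0.08 and reference by 1.30. Bud13, a splicing factor, was second lowest at -2.98 ± 0.29, with a ratio of -0.06 at 6 h and 2.92 at 1 h. Its processed signals differed little, with Cy5 at 777 at 6 h and 958 at 1 h and the reference at 787 and 912. In normalized Cy5 alone it stood at 1.73, the other way. Its reference thus counts as steady in the processed signals, but its call does not hold in them. The Ccl3 spot had Cy5 signals of 13417 at 6 h and 117 at 1 h and reference signals of 13660 at 6 h and 183 at 1 h, with a ratio difference of 0.17.

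Genes seen in Cy5 on 1 of the 2 arrays have a bound in Cy5, which takes no account of the reference and is open to dye bias. At 2-fold or more 14 were higher and 6 lower, and in 16 of the 20 the reference moved the same way by at least 1. In the largest of them the reference moved by nearly as much as Cy5 or more, so these are bounds on the Cy5 signal of a spot and not on a change of the gene. The Cy5 bounds in log2 were 5.16 for Prdx4, a peroxiredoxin of the endoplasmic reticulum, 3.62 for Gfpt1, an enzyme of the hexosamine pathway, and 2.92 for Trmt11, a tRNA methyltransferase subunit, all in the higher direction. Their reference was higher by 5.40, 3.72 and 2.73. In the lower direction the Cy5 bounds were 3.79 for Sec61a1, the channel of the reticulum, and 3.604 for the lipid kinase Pi4k2b, with reference changes of -3.32 and -3.23. Of the 4 whose reference moved by under 1, named after their values were seen, the histone H2bc23, Cfd and Chp2 were at least 2.61-fold, 2.36-fold and 2.14-fold higher in Cy5, with reference changes of -0.11, 0.30 and 0.68, and Nek3 was at least 2.03-fold lower in Cy5, with a reference change of -0.89.

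The lower genes were chosen by their 1 h and 6 h ratios, and at 4 h their median lay in between. Single genes such as Nr4a1, Nr4a2 and Klf2 lay below their 6 h ratio at 4 h. The median ratio of the lower genes was 0.51, -0.21 and -0.75 at 1, 4 and 6 h, and 41 of 73 lay nearer their 6 h ratio at 4 h. The higher genes had medians of -0.41, -0.13 and 0.82, and 5 of the 17 measured at 4 h lay nearer their 6 h ratio. Over all genes the share was 46.8%. Mt2 and Hmox1 were among the 5, while H1f2 (-0.59 at 4 h) and Gadd45b (-0.17) lay nearer their 1 h ratio.

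The arrays shared 1 slide with positions in the order of time, so a position effect and time cannot be told apart. The share of spots with Cy5 well above background was 49.5% at 6 h and 51.8% at 1 h, with a mean signal over background of 34.8 at 6 h and 45.2 at 1 h.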

How the data were processed

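Total RNA of RAW 264.7 cells carried Cy5 and a common reference Cy3 on every array, so dyes were not swapped, per the labels. Per the submitters' processing notes, the scanner software was Agilent Feature Extraction, version 10.5.1.1. The deposited files give intensity values (median spot and local background brightness, uncorrected), processed intensity values, background-subtracted and dye-normalized by the scanner software, and log10 of the ratio Cy5 / Cy3, per the file headers.

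Median intensities of all spots were corrected with normexp (offset 50) and normalized by loess within each array in limma 3.58.1 (R 4.3.3), with control and outlier spots at weight 0, no step between arrays. Outlier spots (1.55% to 1.84% per array) and control spots were left out; 0 spots were saturated. Spots, then probes of a gene, were averaged. A measured probe was well above background in Cy5 and Cy3 of the 6 h and 1 h arrays. The offset shrinks differences of dim genes. Probes were named by unversioned accession through a RefSeq table of GRCm38.p6 (27649 of 39429 probes, 20967 genes); the array was annotated on mm9, so probe coordinates are not used here. Another 2618 measured probes had no name, 15 of them higher and 18 lower. Bounds used Cy5 after Aquantile normalization, against the higher of the dim probe and the lowest value well above background.

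No test was made, since each time had 1 array. Named genes were the 15 highest and 15 lowest with a symbol (no clone, accession, Rik, Gm or LOC number), probes of 1 sign and a reference moved by under 1, up to 5 each way whose reference moved by more, the 3 largest bounds each way, every list member past the rule with up to 4 others, and a benchmark list; some of these genes are left out of the text. The members and the 51 gene lists were chosen with earlier results of these data known. Alternatives changed background correction, normalization, value source, filters, probe choice and threshold. The steps were tested on simulated data. Plots were drawn with matplotlib 3.10.9 and tables made with pandas 2.3.3 and numpy 2.4.6 in Python 3.11.15.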

Additional observations from a re-analysis of the deposited data

How the results depend on the processing

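No paired analysis was possible because each time had 1 array and the labels carry no replicate numbers. The 18 higher and 73 lower genes became 35 and 80 without background correction, 57 and 111 with plain subtraction, 20 and 115 with an offset of 16, 139 and 220 in processed signals, 139 and 219 in the deposited ratios, 119 and 128 in Cy5 alone, and 86 and 437 at 1.5-fold. Median centring in place of loess gave 2 and 5013 around a median of -0.98; on the measured genes, an alternative chosen after seeing the data, it gave 125 and 108. The causes of these moves were not tested, but the 1.5-fold rule is wider by construction. In processed signals 18 of the 18 higher and 70 of the 73 lower genes kept their call, and in Cy5 alone 15 and 51. Aquantile normalization gave the same 18 and 73 by construction, because it leaves every ratio as it was. The brightest probe gave 19 and 75, kept outlier spots 20 and 76, no dim filter 19 and 67 and genes measured on 3 arrays 17 and 73. Genes with a steady processed reference, Bud13 among them, gave 18 and 70. The direction turned for 4 genes in Cy5 alone, Ang4 (1.263), Bud13 (1.727), Defa21 (2.750) and Rcor3 (0.025), and Gadd45b stood at -0.018 under median centring. Signal over background limits dim genes such as Mir17hg, Fosb and H2bc8, and the spread between cultures is not known from pooled RNA.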

Other observations

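Lower genes outside the named lists, chosen after their values were seen, included several with known roles in macrophages or signalling. Gpr84, a receptor for medium-chain fatty acids that activated macrophages express, had processed Cy5 signals of 1838 at 6 h and 5105 at 1 h and a difference of -1.17. Tnfrsf12a, the receptor of the cytokine TWEAK, had 3665 at 6 h and 8929 at 1 h (-1.34), and Rcan1, an inhibitor of calcineurin, 1918 at 6 h and 4273 at 1 h (-1.14). The inhibitory receptor Pdcd1 had 558 at 6 h and 1762 at 1 h (-1.46). Ifi207, of the same family as Ifi204, stood at -1.17 over 2 probes, and the cell cycle genes E2f8 and Ccnf at -1.04 and -1.18. In all of these the Cy5 signal was lower at 6 h.

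Some dim genes short of the 2-fold rule differed more in the processed Cy5 signal. Dusp5, a MAP kinase phosphatase, had Cy5 signals of 80.0 at 6 h and 410 at 1 h, a change of -2.36, beside a ratio difference of -0.95. Osm had 107 at 6 h and 492 at 1 h, a change of -2.21, beside -0.85. Slc40a1 had 256 at 6 h and 78.9 at 1 h, a change of 1.70. The complement gene C1qb had 157 at 6 h and 64.0 at 1 h, a change of 1.30, beside a ratio difference of 0.34.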
